A study of Homo sapiens with 6 samples.

Results

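The transcripts described here are those of 9 human genes that display antigens at the cell surface or load them for display. HLA-B, HLA-C, HLA-E and HLA-F encode class I heavy chains, B2M their light chain, TAP1 and TAP2 the peptide transporter, TAPBP the peptide-loading protein tapasin, and MR1 a class I-like molecule. They were chosen by their role in this pathway with the differences between these same tumours known, so their values are given as a description and without a test. All 9 had 1 probe set each among 24726, of which 23934 carried 1 gene symbol. The arrays came from 6 subcutaneous tumours grown in nude mice from Huh7, a cell line of human hepatocellular carcinoma. In 3 tumours (IR-A) the cells stably carried the plasmid pRcCMVi.hIR-A(GFP), which encodes insulin receptor isoform A of human origin and whose name points to a CMV promoter. In the other 3 (control) they carried the empty vector. Cells of both groups had been selected by G418 and by cytometry for GFP. None of the sources used here says whether the transfected cells were pools or clones, or how old the mice were. Nude mice lack a functional thymus and hence mature T cells, and they keep natural killer cells and macrophages.

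Class I molecules present short peptides from proteins made inside the cell to CD8 T cells. The proteasome cuts the peptides, TAP1 and TAP2 carry them into the endoplasmic reticulum, and tapasin holds the empty heavy chain with B2M at the transporter until a peptide of good fit is bound. HLA-B and HLA-C are classical presenting molecules, HLA-E shows leader peptides of other class I chains to natural killer cell receptors, and HLA-F can reach the surface without a peptide. MR1 pairs with B2M too but binds small metabolites of microbial vitamin B2 synthesis, which mucosal-associated invariant T cells recognise. In hepatocytes, as in most cells, interferons raise transcription of the class I genes.

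The library labels were checked on INSR, the insulin receptor gene, whose log2 signals were 10.65, 11.31 and 11.01 in IR-A tumours, against 8.04, 7.61 and 8.47 in control tumours. It differed by 2.95 (SE 0.26, adjusted p = 0.0769 in limma). With 1 tumour left out, the adjusted p in limma ran from 0.0261 to 0.407, and it was under 0.05 only without control tumour 2. Whether the INSR probe set tells isoform A from isoform B was not tested. Array medians were alike, between 4.66 and 4.74. Control tumour 2 stood apart, with a mean correlation over probe sets of 0.982 with the other controls and 0.987 with the IR-A tumours. Hepatocyte and hepatocellular carcinoma markers were bright in every tumour, with 0 of 9 dimmer than the median probe set. The labels do not tie a tumour to a mouse or a culture, and any p-value therefore weighs a difference against the variation among these tumours alone, part of which may be technical.

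MR1 and TAPBP had clearly more signal in IR-A tumours, HLA-B had slightly more, and HLA-C, HLA-F, B2M and TAP1 lay close to the same level in both groups. TAP1 was dim, and HLA-B, HLA-C, HLA-F and TAP2 lay near the median probe set, with 48.4% to 55.8% of probe sets dimmer. Signal over background was not given per probe set, so changes in these genes may not be readable here. Over the 9 genes the median difference, IR-A mean minus control mean on the log2 scale, was 0.15, against -0.026 over all probe sets. The mean was higher in IR-A tumours for 8 of 9 genes, where 44% of all probe sets had a higher mean. In 3 of 9 genes, HLA-B, TAPBP and MR1, every IR-A tumour lay above every control tumour. This held for 7.73% of all probe sets. In limma, 0 of the 9 genes passed an adjusted p of 0.05, as did 0 of all probe sets (0%). Because the genes were chosen with this contrast in view, nothing is read from these counts. In these bulk samples, fewer cells of a type and less RNA per cell cannot be told apart.

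**Figure D1:**
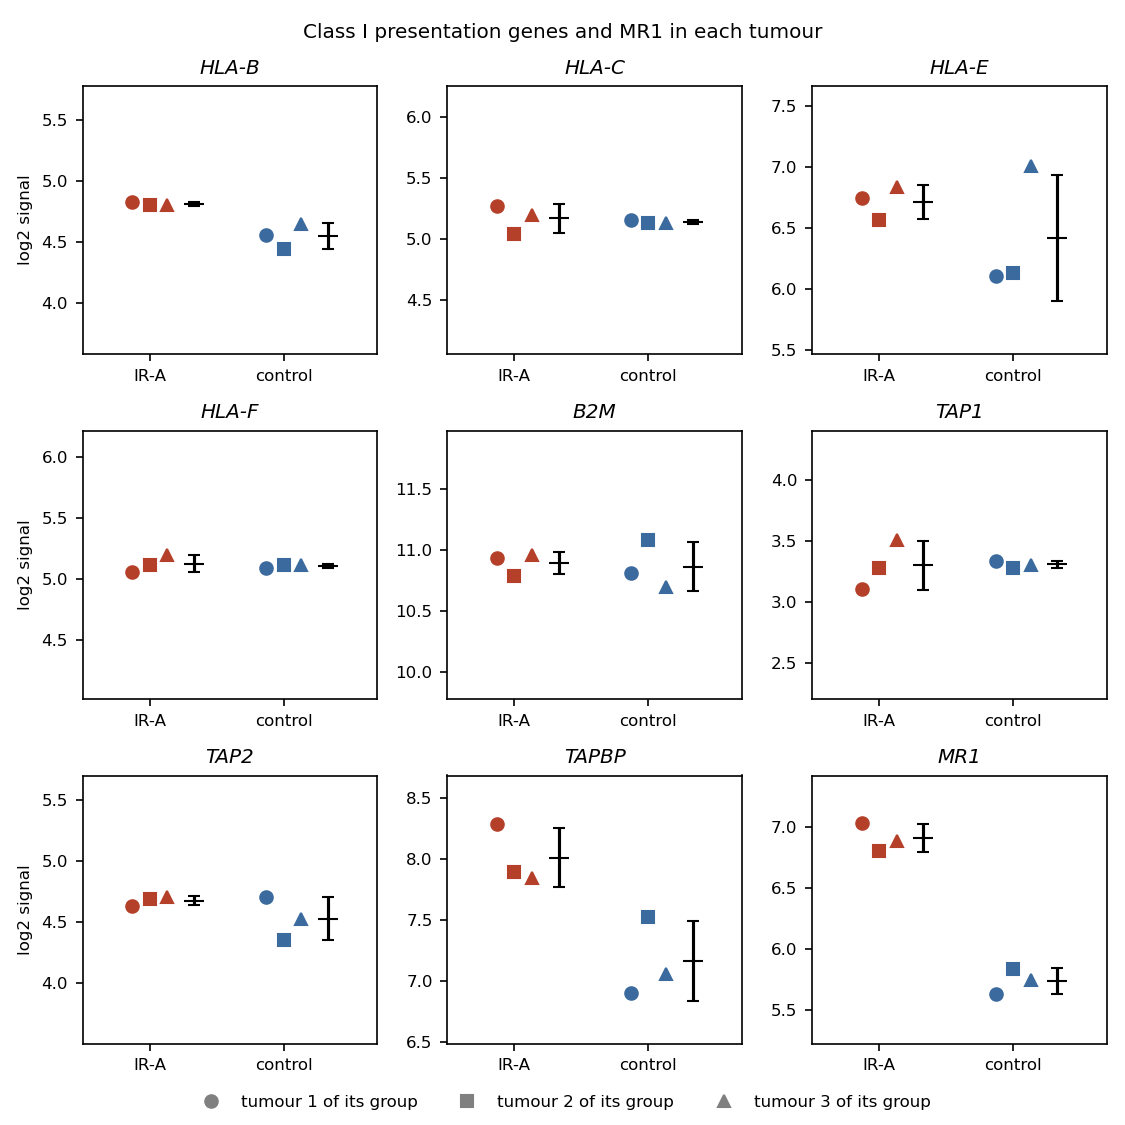
Log2 signal (y axis) of each of the 9 genes in the 3 IR-A tumours (red) and the 3 control tumours (blue), with symbols for the tumour's number in its group, and group mean and SD in black. Every panel spans the same length on the log2 scale, and the groups are apart in HLA-B, TAPBP and MR1.

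Among the heavy chains, HLA-B had log2 signals of 4.83, 4.80 and 4.80 in IR-A tumours, against 4.56, 4.44 and 4.65 in control tumours. The IR-A tumours were tightly grouped and lay above all controls by 0.15 or more. The difference was 0.26 (SE 0.09, 95% interval 0.04 to 0.48), or 1.20-fold, and 0.21 without control tumour 2. HLA-B lay just below the median probe set in brightness.

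HLA-C, the other classical chain here, had log2 signals of 5.27, 5.04 and 5.19 in IR-A tumours, against 5.15, 5.13 and 5.13 in control tumours. The IR-A tumours lay on both sides of the narrow control range. Its difference was 0.031 (SE 0.10, 95% interval -0.20 to 0.26). Without IR-A tumour 2 it was 0.096, with groups that then did not overlap, and without IR-A tumour 1 it was -0.020. Class I heavy chains are near copies of one another, and signal shared between their probe sets was not tested.

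HLA-E, the ligand of natural killer cell receptors, had log2 signals of 6.75, 6.56 and 6.84 in IR-A tumours, against 6.11, 6.14 and 7.01 in control tumours. Control tumour 3 was the highest of all 6, and the other controls the lowest. The difference of 0.30 (SE 0.25, 95% interval -0.31 to 0.90) depended on which control was left out, as it was 0.59 without control tumour 3, 0.14 without control tumour 1 and 0.16 without control tumour 2. HLA-F had 5.06, 5.11 and 5.20 in IR-A tumours, against 5.09, 5.11 and 5.12 in control tumours. Its difference of 0.016 (SE 0.09, 95% interval -0.19 to 0.22) was smaller than the spread within IR-A tumours (SD 0.070), and it ran from -0.021 without IR-A tumour 3 to 0.049 without IR-A tumour 1.

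B2M, the light chain that both the HLA heavy chains and MR1 need, had log2 signals of 10.93, 10.79 and 10.97 in IR-A tumours, against 10.82, 11.09 and 10.70 in control tumours. The controls spanned the whole IR-A range. The difference was 0.031 (SE 0.13, 95% interval -0.27 to 0.33), an interval that ends below the difference of MR1, though the genes were not tested against each other. Without control tumour 2 the B2M difference was 0.14, and without control tumour 3 it was -0.054. Of the array's probe sets, 99.2% were dimmer than B2M, near the upper end of the scale.

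The subunits of the peptide transporter did not stand apart between groups. TAP1 had log2 signals of 3.11, 3.29 and 3.51 in IR-A tumours, against 3.34, 3.29 and 3.31 in control tumours, a difference of -0.0080 (SE 0.12, 95% interval -0.30 to 0.28). It was dim, below the lower quartile of probe sets (3.42), so a change in its transcript may not be readable here, and the difference was -0.11 without IR-A tumour 3 and 0.088 without IR-A tumour 1. TAP2 had 4.63, 4.69 and 4.71 in IR-A tumours, against 4.70, 4.35 and 4.52 in control tumours. Its difference of 0.15 (SE 0.11, 95% interval -0.12 to 0.42) was 0.24 without control tumour 1 and 0.061 without control tumour 2. The upper ends of both intervals lay below the TAPBP difference of 0.85. The interval of TAPBP itself, 0.37 to 1.33, overlapped that of TAP2, and differences between genes were not tested.

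TAPBP, or tapasin, had log2 signals of 8.29, 7.90 and 7.85 in IR-A tumours, against 6.90, 7.53 and 7.06 in control tumours. The groups did not overlap, with a gap of 0.32, and control tumour 2 was the control nearest to the IR-A tumours. The means were 8.01 ± 0.24 in IR-A and 7.16 ± 0.33 in control tumours (SD, n = 3 each), which differed by 0.85 (SE 0.20, 95% interval 0.37 to 1.33), or 1.80-fold. Without control tumour 2 the difference was 1.03, and without IR-A tumour 1 it was 0.71.

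MR1 had log2 signals of 7.03, 6.80 and 6.89 in IR-A tumours, against 5.63, 5.84 and 5.75 in control tumours. The lowest IR-A tumour lay 0.97 above the highest control tumour, a gap wider than the spread within either group. Its means were 6.91 ± 0.12 in IR-A and 5.74 ± 0.10 in control tumours (SD, n = 3 each), which differed by 1.17 (SE 0.11, 95% interval 0.92 to 1.42), or 2.25-fold. Control tumour 2, which resembled the IR-A tumours over the whole array, was the highest of the controls for MR1 but remained far below the IR-A range. Leaving out any 1 tumour gave differences from 1.11 to 1.22.

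The start regions of these genes, where available, were searched for short motifs associated with interferon regulatory factors (IRF), NF-kB and the class I enhanceosome. Whether these factors act there was not tested. Promoters of 300 bases (250 before and 50 after a transcription start) were taken from RefSeq on GRCh38.p14, which held 10 for 8 of the genes, all but HLA-E, with 2 start sites each for TAP1 and MR1. The core element bound by IRF proteins, AANNGAAA, was searched on both strands. It was found in 8 of these 10 promoters, and 22.8% of 35116 promoters held it. The motif was chosen after the sequences had been looked at, and a match is neither a measured binding site nor a cause. It lay at the first-listed start of 7 genes, shown here within 30 bases to compare how the element is repeated, 5′ to 3′ in the gene's direction, with the matching bases in capitals:
HLA-B (chr6:31357316-31357345, - strand): actcccctgagTTTCACTTcttctcccaac
HLA-C (chr6:31272225-31272254, - strand): actcccctgagTTTCACTTctcccaacctg
HLA-F (chr6:29723267-29723296, + strand): tctccccagagTTTCTCTTtctctcccaac
B2M (chr15:44711364-44711393, + strand): agactctaagaAAAGGAAACTGAAAacggg
TAP1 (chr6:32853820-32853849, - strand): caggcggccgcTTTCGATTTCGCTTtcccc
TAP2 (chr6:32838783-32838812, - strand): cttggctggggAAGCGAAAGCGAAAgctgc
TAPBP (chr6:33314078-33314107, - strand): cctttggaggaAAGTGAAAGTGAAAggagg

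The matches of HLA-B, HLA-C and HLA-F began at -155, -151 and -156 relative to the start and ran on the opposite strand. B2M, TAP1, TAP2 and TAPBP each held 2 overlapping matches, which also ran on the opposite strand in TAP1 but not in the others. In TAPBP the first of them began at -18, next to the start. The first-listed start of MR1 had none, and its other start had 1 match, at -125 on the opposite strand. Whole windows of TAPBP and of the first-listed MR1 start are shown because these genes had the largest differences of the 9, with the IRF core in capitals:
TAPBP (chr6:33314029-33314328, - strand): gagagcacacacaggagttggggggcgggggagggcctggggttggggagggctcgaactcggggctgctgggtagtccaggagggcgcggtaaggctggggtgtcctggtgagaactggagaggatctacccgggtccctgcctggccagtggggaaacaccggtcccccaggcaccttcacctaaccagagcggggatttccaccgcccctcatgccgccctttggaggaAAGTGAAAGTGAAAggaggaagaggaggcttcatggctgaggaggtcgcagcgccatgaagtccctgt
MR1 (chr1:181033137-181033436, + strand): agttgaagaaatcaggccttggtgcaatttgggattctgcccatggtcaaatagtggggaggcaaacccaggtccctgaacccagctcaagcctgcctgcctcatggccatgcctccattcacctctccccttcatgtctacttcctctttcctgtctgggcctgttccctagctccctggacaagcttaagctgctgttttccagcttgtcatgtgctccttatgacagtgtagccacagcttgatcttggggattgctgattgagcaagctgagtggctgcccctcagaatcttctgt

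Other motifs of class I promoters divided the genes in the same windows. CCAAT, the core of the enhanceosome's Y box, on either strand, was present in the windows of HLA-B, HLA-C, HLA-F and B2M and at one start each of TAP1 and MR1 (34.6% of all promoters). TGACG, the core of the element that CREB and ATF proteins bind in the X box, occurred in HLA-B, HLA-C, B2M and TAP2 (24.6% of all promoters). The NF-kB consensus matched in HLA-B, HLA-C, B2M, TAP1 and TAPBP (11.3% of all promoters). The first-listed MR1 window had none of the 4 motifs, while TAPBP had the IRF core and the NF-kB consensus.

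**Figure D2:**
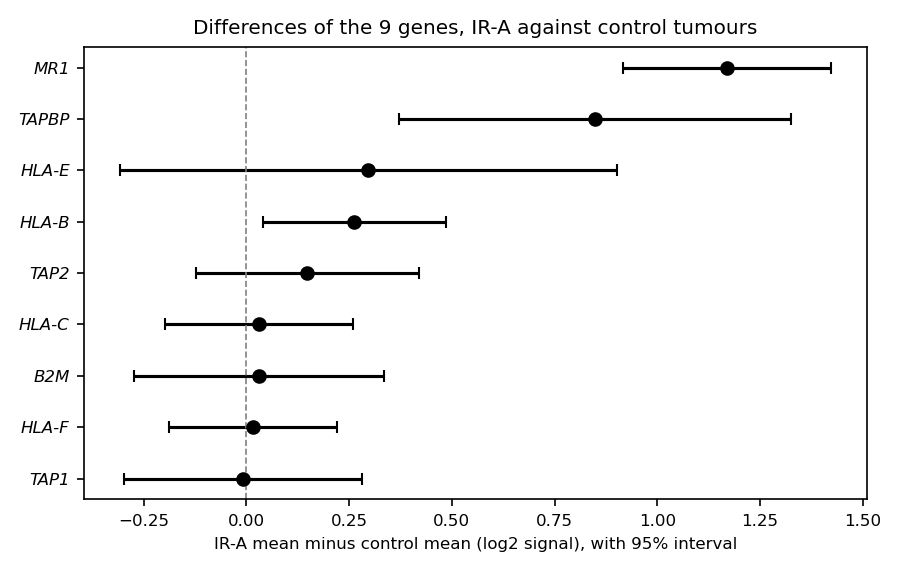
Difference between the IR-A and control means (x axis, log2 signal) of the 9 genes, with moderated 95% intervals from limma. The points of MR1 at 1.17 and TAPBP at 0.85 lie to the right of the other genes, which lie between -0.0080 and 0.30. The interval of TAPBP overlaps some of theirs.

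Tumour by tumour, the 9 genes did not move as one. Centred on each gene's mean over the 6 tumours, IR-A tumour 1 was the highest for MR1 (0.71), TAPBP (0.70), HLA-B (0.15) and HLA-C (0.12), but it was the lowest for TAP1 (-0.20) and HLA-F (-0.058). Control tumour 2 was the highest of the controls for MR1, TAPBP and B2M, and the lowest of them for HLA-B, TAP1 and TAP2. Control tumour 3 was high for HLA-E alone (0.45). The tumour that resembled the IR-A group over the whole array was thus not nearer to it in every class I gene.

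**Figure D3:**
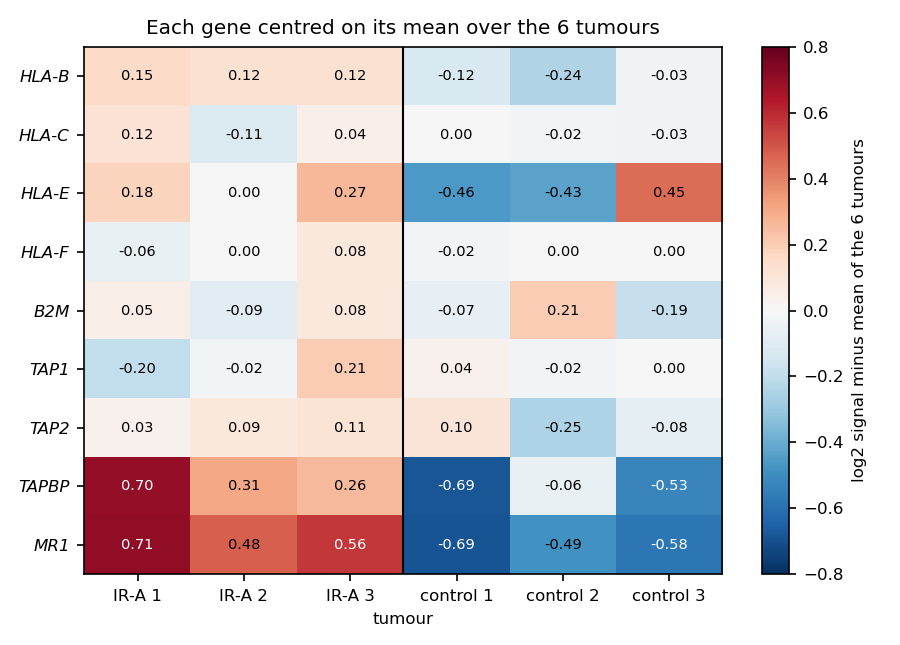
Log2 signal of each gene (rows) minus its mean over the 6 tumours, in the 3 IR-A tumours (left of the line) and the 3 control tumours (right). MR1 and TAPBP carry the deepest colours in the IR-A columns, up to 0.71 and 0.70, while HLA-F and HLA-C are nearly flat.

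Chromosome 6 holds 7 of these genes, chromosome 1 holds MR1 and chromosome 15 holds B2M. The nearest measured genes, 5 on each side in the order of GRCh38.p14 and leaving out the 9 themselves, were described after the values were seen. Around MR1, 4 of 10 neighbours were higher in IR-A tumours, with a median difference of -0.018 and a range from -0.21 to 0.31. Around TAPBP, 2 of 10 were higher, with a median of -0.12 and a range from -0.55 to 0.24. Both differences exceeded those of all 10 neighbours. These genes had the largest differences of the 9 and were chosen with this contrast in view, so nothing is read from this. TAP1 shares a divergent promoter with the immunoproteasome gene PSMB9, whose difference was the highest of its neighbours (0.46), against -0.0080 for TAP1. Both probe sets were dim, with 35.3% of probe sets below PSMB9 and 22.0% below TAP1. A change in either transcript may therefore not be readable here, and the genes were not tested against each other.

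Other genes of antigen presentation were described in 8 lists, of which 97 of 104 genes were measured and named. In limma, 0 of 97 passed an adjusted p of 0.05 in either direction, and the lowest adjusted p was 0.131. At an unadjusted p under 0.05 there were 15 higher and 4 lower, and among all probe sets 7.1% were higher and 7.03% lower at that p. Groups did not overlap for 18 genes with IR-A higher and 5 with IR-A lower, against 7.73% and 9.45% of all probe sets. All differences in the lists are log2 differences that did not pass, and the genes named, apart from NLRC5, are those of smallest unadjusted p in their list. Counts of genes above 0 stand beside 44% of all probe sets with a higher IR-A mean. The lists were chosen with earlier results of these data known, so nothing is read from their counts.

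The peptide supply list, proteasome subunits and peptidases that make or trim peptides, had 7 of 12 genes above 0 and a median of 0.076. ERAP1, the endoplasmic reticulum peptidase that trims peptides to class I length, had log2 signals of 6.86, 6.94 and 7.04 in IR-A tumours, against 6.05, 6.32 and 6.59 in control tumours, a difference of 0.62 (SE 0.15, limma adjusted p = 0.173). The immunoproteasome subunit PSMB9 had 3.90, 4.20 and 4.17 in IR-A tumours, against 3.63, 3.55 and 3.73 in control tumours (0.46, SE 0.12). Its probe set was dim, with 35.3% of probe sets below it. At an unadjusted p under 0.05, 2 members of this list were higher and 3 lower. Chaperones and folding enzymes of loading had 3 of 7 above 0 (median -0.033). In that list CANX, calnexin, which folds new heavy chains, lay at 10.75 in all 3 IR-A tumours, against 11.13, 10.99 and 10.98 in control tumours (-0.28, SE 0.09). TAPBPL, a tapasin-like peptide editor, differed by 0.45 (SE 0.19), with groups that overlapped.

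Other class I and class I-like heavy chains had 7 of 18 above 0 and a median of -0.038. Their smallest p values belonged to RAET1G (-0.44, SE 0.20) and ULBP1 (-0.34, SE 0.16), ligands of the natural killer receptor NKG2D, and the groups overlapped in both genes. No gene of this list reached an unadjusted p under 0.05 (0 of 18). Genes for handling MR1 had 4 of 5 above 0 (median 0.088), among them the membrane fusion proteins STX4 (0.33, SE 0.11) and VAMP4 (0.32, SE 0.15). Class II presentation genes had 4 of 12 above 0 (median -0.036). The exception in size was CTSS, cathepsin S, which trims the class II invariant chain, with 7.55, 7.02 and 7.39 in IR-A tumours, against 5.89, 6.09 and 5.17 in control tumours (1.60, SE 0.26, limma adjusted p = 0.131). HLA-DQB1 differed by -0.28 (SE 0.18).

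Transcription factors of class I genes had 10 of 18 above 0 and a median of 0.029. IRF1, an interferon-induced activator of class I promoters, had 5.08, 4.47 and 4.52 in IR-A tumours, against 4.06, 3.88 and 4.05 in control tumours (0.69, SE 0.18, limma adjusted p = 0.190). NFYA, a subunit of the factor that binds CCAAT, differed by 0.36 (SE 0.12). NLRC5, the class I transactivator, lay at 3.99 in all 3 IR-A tumours, against 4.02, 3.86 and 3.99 in control tumours, and was picked after its values were seen. Its probe set was dim, with 37.4% of probe sets below it, so a change in its transcript may not be readable here. The list of interferon and TNF ligands, receptors and kinases had 12 of 16 above 0 (median 0.16), with 4 higher and 0 lower at an unadjusted p under 0.05. Its named genes were the receptor kinase JAK2 (0.51, SE 0.15) and IFNLR1, the interferon lambda receptor chain (0.27, SE 0.10). Negative regulators of surface class I had 7 of 9 above 0 (median 0.26), with 4 higher at that p, among them TMEM127 (0.55, SE 0.16) and the autophagy receptor NBR1 (0.37, SE 0.13). Over all probe sets, 44% lay above 0, and 7.1% were higher and 7.03% lower at that p. Values of interferon genes were among the earlier results known when the lists were chosen.

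**Figure D4:**
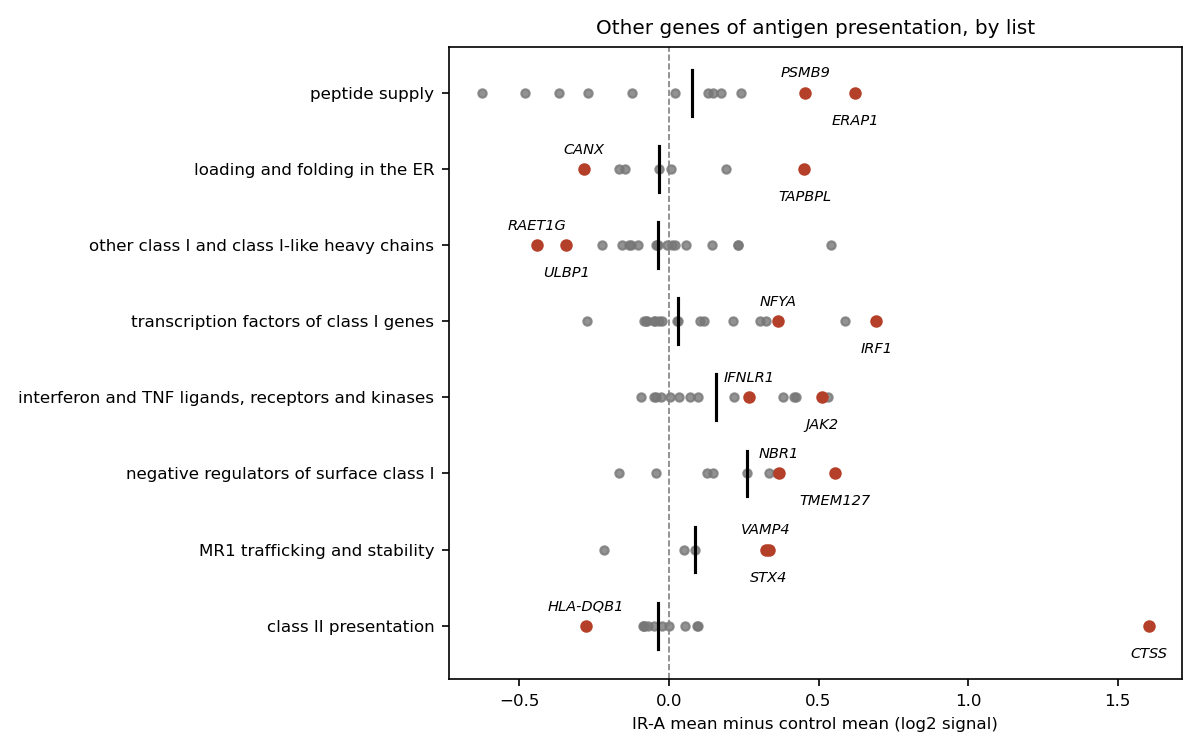
Differences between the IR-A and control means (x axis, log2 signal) of 97 genes in 8 lists of antigen presentation (rows), with the list median as a black bar and the named genes in red. Most genes lie within a narrow band around 0, CTSS at 1.60 lies farthest to the right, and none passed an adjusted p of 0.05 in limma.

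Tumour profiles most like that of MR1 were sought among 23922 other genes by the root mean square difference of centred log2 signals over the 6 tumours. USH1C, a scaffold protein of microvilli, was nearest at 0.052, with a difference of 1.08 between groups. It was followed by PPP1R3B, which targets protein phosphatase 1 to glycogen, at 0.13, and GLCE, an epimerase of heparan sulfate synthesis, also at 0.13. TLR3, a receptor for double-stranded RNA, followed at 0.13 and the magnesium transporter gene SLC41A2 at 0.14. All 5 share the same 6 arrays and were found by their likeness to a gene with a large group difference. For TAPBP the nearest gene was ZYX, the focal adhesion protein zyxin (0.050), for HLA-B it was THAP8 (0.036) and for HLA-E it was MPZL2 (0.080). The nearest genes to HLA-C (ZNF185), HLA-F (KRT26), B2M (LARRPM), TAP1 (LINC01445) and TAP2 (SBK2) lay at 0.012 to 0.026. The measure is not scaled by a gene's spread, so genes that vary little find closer matches, and these distances do not show a closer likeness than that of MR1. KRT26 and LINC01445 were dim, with IR-A means of 2.72 and 2.62.

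Markers of cells that could be present beside Huh7 were read on the same human probe sets, which mouse RNA reaches only where it binds to them. Fibroblast markers had 5 of 7 genes above 0 (median difference 0.24), and their mean log2 signal was 4.52 to 4.67 in IR-A tumours, against 4.10 to 4.31 in control tumours. Of the fibroblast markers, LUM, the matrix protein lumican, differed by 1.26 (SE 0.15), COL1A2 by 0.83 and COL1A1 by 0.40, while DCN differed by -0.013 and FAP by -0.079. DCN, FAP and LUM were dim, with 2.66%, 13.2% and 29.5% of probe sets below them, so a change in DCN or FAP may not be readable here. The fibroblast, myeloid and T and NK cell lists had 3 of 7, 6 of 10 and 5 of 9 markers dimmer than the median probe set. Myeloid markers had 5 of 10 above 0 with a median difference of 0.0078, and their mean was 5.67 to 5.77 in IR-A tumours, against 5.44 to 5.61 in control tumours. That mean was carried mostly by TYROBP, a signalling adaptor of myeloid and NK cells (1.78, SE 0.29). The other myeloid markers had no common direction, as CD68 differed by 0.62 and LYZ by 0.27, but FCER1G by -0.60 and CD14 by -0.24. Among the myeloid markers, every IR-A tumour lay above every control for TYROBP and CD68, and below every control for FCER1G. Of all probe sets, 7.73% were separated with IR-A higher and 9.45% with IR-A lower. ITGAX, CSF1R, AIF1 and ITGAM lay between -0.028 and 0.059. The leukocyte marker PTPRC was dim, with 10.4% of probe sets below it, and lay at 2.87, 2.84 and 2.86 in IR-A tumours, against 2.94, 2.87 and 2.99 in control tumours. Hepatocyte and hepatocellular carcinoma markers had 8 of 9 above 0 with a median difference of 0.32, and their mean was 12.13 to 12.23 in IR-A tumours, against 11.81 to 12.04 in control tumours. In limma, 0 marker genes of any list passed an adjusted p of 0.05. The mean levels of the fibroblast, myeloid and hepatocyte lists thus did not overlap between groups, as for HLA-B, TAPBP and MR1, and their part in the results was not tested. T and NK cell markers had 1 of 9 above 0 (4.35 to 4.48 in IR-A tumours, against 4.34 to 4.74 in control tumours). Endothelial markers had 2 of 6 above 0 (3.97 to 3.98 in IR-A tumours, against 3.89 to 3.99 in control tumours), with 5 of 6 dimmer than the median probe set.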

How the data were processed

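Total RNA of 6 tumours (3 IR-A, 3 control, grouped by their titles) was read on Affymetrix arrays, 500 ng each per the labels' protocols. Each array's deposited column holds a log2 signal for every probe set. The authors used RMA (background correction, normalization across arrays and probe summary) and Partek, per the submitters' processing notes. The array model is not given in the sources used here, nor are the probe set definition and genome build, and the log2 scale was read from the values. Probe sets were named from GEO's platform annotation by Entrez gene ID. Genes of the lists without a name there were not analysed here.

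IR-A was compared with control in limma 3.58.1 (R 4.3.3, lmFit and eBayes, no filter, no trend) over all 24726 probe sets, with Benjamini-Hochberg adjustment and a threshold of 0.05. SE and 95% intervals are the moderated ones. The 9 genes and the lists were chosen with earlier results of these data known. Named genes were the 9, INSR, the genes of each list past the threshold or else the 2 of smallest unadjusted p, and the genes of nearest profile (5 for MR1, 1 for each other gene). NLRC5 and the marker genes given with values fall outside this rule and were picked after their values were seen. The fit was tested on 5 simulated data sets of 3 against 3 tumours, each with 200 changed probe sets. It recovered 63% of log2 changes of 1 and 90.6% of log2 changes of 2, and called 0.0253% of unchanged probe sets. Noise was independent between the simulated arrays, so a tumour that stands apart, such as control tumour 2, was not modelled. Arrays carry no read depth, and their number limits the precision. An exact two-sided permutation test of 3 against 3 cannot go below p = 0.1. Motifs were searched in RefSeq promoters (GRCh38.p14). Alternatives were other scalings, filters on dim probe sets, moderation, array weights, the replicate block and each tumour left out. Figures were drawn with matplotlib 3.10.9.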

Additional observations from a re-analysis of the deposited data

How the results depend on the processing

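Counts of probe sets past the threshold, 0 as reported, were 14 with the dimmest 25% of probe sets left out and 20 with the dimmest 50% left out, where fewer were tested and moderation was fitted anew, 11 with array weights, and 0 to 308 with 1 tumour left out, the 308 without control tumour 2. INSR passed in the same 4 settings (2.95 under both filters, 2.87 with array weights, 2.74 without control tumour 2), and its difference ran from 2.74 to 3.17 over left-out tumours, with adjusted p from 0.0261 to 0.407 over all 14 alternatives. Of the 9 genes, 1, MR1, was among the called probe sets in these 4 settings, which adds no support since this contrast chose it. The pathway lists had 0 genes past the threshold in all 14 alternatives. The median difference over the 9 genes, 0.15, was 0.21 without the dimmest 25% of probe sets, which leaves out TAP1, 0.11 with array weights, and 0.13 to 0.17 over left-out tumours. The number of genes with a higher IR-A mean ran from 6 to 9, and of genes whose groups did not overlap from 3 to 4, over left-out tumours. The differences of HLA-B, HLA-E, TAP2, TAPBP and MR1 kept their sign in each alternative run on them, while the sign turned in 1 for HLA-C, 1 for HLA-F, 2 for B2M and 6 for TAP1, all near 0. With the replicate block, 0 probe sets passed and INSR differed by 2.95 (adjusted p = 0.342). The labels do not say whether tumours with the same number were paired. Deviations from group means of such tumours correlated at -0.29, -0.36 and 0.020, and no IR-A tumour correlated best with its own number. Deviations within a group of 3 tumours depend on one another, so these correlations cannot settle whether tumours were paired. Signal over background was not given per probe set, so dim genes such as TAP1 carry the least certain differences.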
